A study of Mus musculus with 14 samples.

Results

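The start and the end of Ocy454 cell differentiation were compared across the transcriptome. In all, 4 libraries entered the comparison, 2 of cells at day 1 and 2 of cells at day 14, out of 14 in the series, and 12725 of the 39179 genes in the deposited table reached more than 1 CPM (reads of a gene per 1000000 reads on genes) in at least 1 of the 8 libraries of the differentiation experiment. Ocy454 is a mouse cell line with osteocyte-like properties that carries a thermosensitive large T antigen. The antigen keeps the cells dividing at 33 °C and is inactive at 37 °C. Days of differentiation are counted from the shift of a confluent culture to the warmer incubator. Both groups were therefore confluent cultures of the same line in the same medium with no further treatment. They had spent 1 day and 14 days at 37 °C. Because the comparison holds 1 line, and time at 37 °C, loss of the antigen and age of the confluent culture go together, these cannot be told apart. In bulk RNA, a change in the number of cells of one kind and a change in RNA per cell also cannot be told apart.

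Osteoblasts secrete and mineralize the collagen matrix of bone, and some of them become embedded in it as osteocytes. An osteocyte loses much of its matrix output, grows dendrites, and makes regulators of phosphate and of bone turnover such as sclerostin, the Wnt inhibitor encoded by *Sost*. Osteocytes in bone live far from vessels, and genes that the hypoxia-inducible factors (HIF) switch on are part of how cells adapt to low oxygen, mainly by raising glucose uptake and glycolysis.

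The libraries held 33877054 and 31882414 reads on genes at day 1 and 34311238 and 27518605 at day 14. Replicates were close, with a median absolute difference in log2(CPM + 1) of 0.0543 at day 1 and 0.0778 at day 14, against 0.364 between the days, and in neither pair of replicates did a tested gene differ by more than 1 on this scale. Counting noise alone gives a chi-square of about 1 per gene between replicates, and the values were 2.35 at day 1 and 6.74 at day 14, so the replicates were kept as separate samples. The replicates are biologic replicates, but nothing says how separately they were grown, so the p-values measure the spread between these libraries.

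Compared with day 1, 956 genes were higher at day 14 and 751 were lower. A call needed both a Log2FC past 1 or -1 and an adjusted p under 0.01 in limma, after Benjamini-Hochberg, on log2(CPM + 1). These are 7.51% and 5.9% of the tested genes, 13.4% in all, and the shares against which each gene list below is to be read. The lists were chosen with earlier results of these data known, so their shares and directions are not independent evidence. The median Log2FC of all tested genes was -0.03. The increases were the larger changes, with 321 genes above a Log2FC of 2 and 141 above 3, against 124 genes below -2 and 19 below -3. Genes called higher took 2.70% of the reads in each day 1 library and 11.03% and 11.16% at day 14, while genes called lower went from 8.33% and 8.38% to 2.66% and 2.64%. A further 7019 genes had an adjusted p below 0.01 with a change within 1 on the log2 scale, so most measurable differences were small. Of the called genes, 896 higher and 731 lower were protein coding, and 38 higher and 12 lower were long noncoding RNAs.

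**Figure D1:**
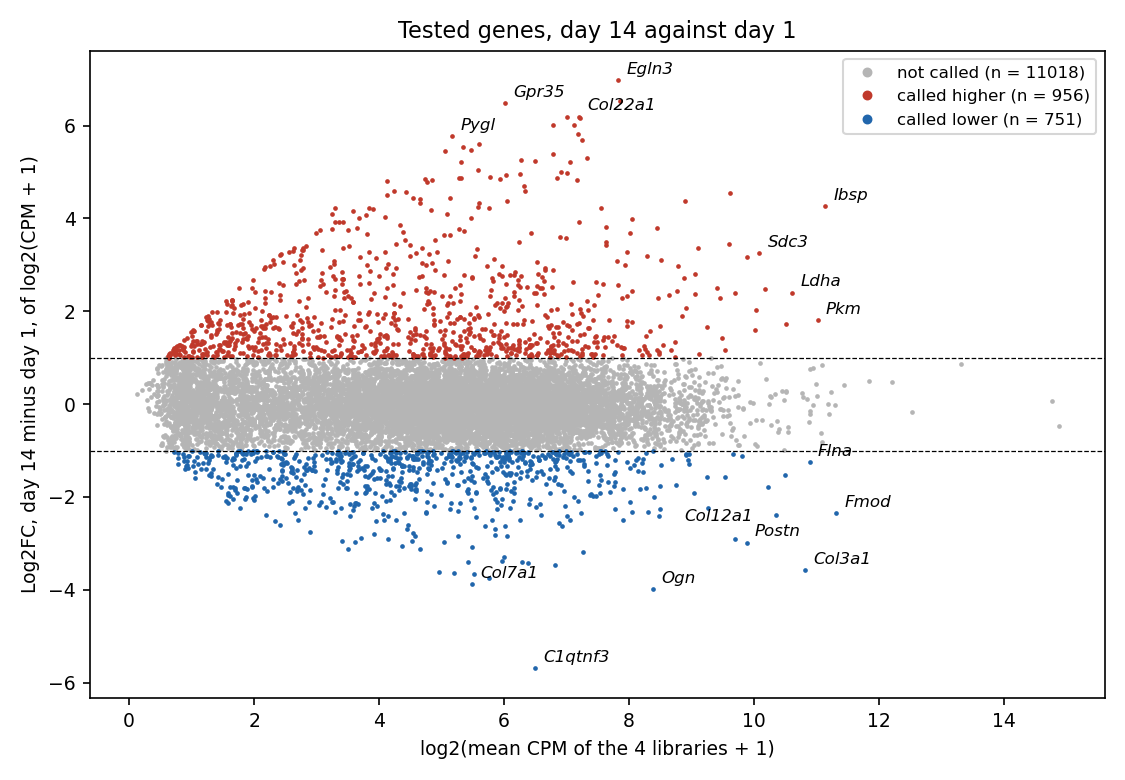
Each point is 1 of the 12725 tested genes, with the log2 of its mean CPM plus 1 over the 4 libraries on the horizontal axis and its Log2FC (day 14 minus day 1, of log2(CPM + 1)) on the vertical axis. Red points are the 956 genes called higher and blue points the 751 called lower, dashed lines mark a Log2FC of 1 and -1, and the increases reach farther from 0 than the decreases, of which only *C1qtnf3* lies below -4.

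The promoters of 4 genes are shown first because these genes belong to 3 lists described below, the HIF targets, the sterol and fatty acid synthesis genes and the interferon-stimulated genes. Each is the 300 bases before the start of the GENCODE canonical transcript in GRCm39, with motif matches in capitals. The 4 genes were chosen after their values were seen. For *Egln3* (chr12:54250674-54250973, minus strand) and *Bnip3* (chr7:138511254-138511553, minus strand) the capitals mark the HIF core letters ACGTG or GCGTG on either strand, where adjacent matches may overlap.
Egln3: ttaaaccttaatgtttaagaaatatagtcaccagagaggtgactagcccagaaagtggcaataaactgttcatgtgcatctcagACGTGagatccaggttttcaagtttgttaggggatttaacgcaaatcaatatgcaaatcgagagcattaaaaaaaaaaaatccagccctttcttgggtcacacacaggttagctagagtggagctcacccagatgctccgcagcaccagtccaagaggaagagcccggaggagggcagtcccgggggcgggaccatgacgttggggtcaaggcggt
Bnip3: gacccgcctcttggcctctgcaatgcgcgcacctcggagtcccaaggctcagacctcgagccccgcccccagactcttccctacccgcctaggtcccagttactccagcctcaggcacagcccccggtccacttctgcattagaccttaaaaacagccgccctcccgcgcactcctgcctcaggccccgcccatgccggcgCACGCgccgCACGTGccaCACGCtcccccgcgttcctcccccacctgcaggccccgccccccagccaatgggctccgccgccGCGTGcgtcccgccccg
For *Hmgcs1* (chr13:120151682-120151981, plus strand) they mark TCACNCCAC, the letters of a sterol response element.
Hmgcs1: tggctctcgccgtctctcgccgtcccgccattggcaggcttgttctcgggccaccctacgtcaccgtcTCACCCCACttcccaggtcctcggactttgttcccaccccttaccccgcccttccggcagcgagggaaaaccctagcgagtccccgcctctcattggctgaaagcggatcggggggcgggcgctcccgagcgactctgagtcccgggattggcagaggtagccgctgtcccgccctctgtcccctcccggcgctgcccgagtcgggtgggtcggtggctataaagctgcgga
For *Ifit1* (chr19:34617971-34618270, plus strand) they mark, on either strand, the letters of an interferon-stimulated response element (GAAA, any 2 bases, GAAA).
Ifit1: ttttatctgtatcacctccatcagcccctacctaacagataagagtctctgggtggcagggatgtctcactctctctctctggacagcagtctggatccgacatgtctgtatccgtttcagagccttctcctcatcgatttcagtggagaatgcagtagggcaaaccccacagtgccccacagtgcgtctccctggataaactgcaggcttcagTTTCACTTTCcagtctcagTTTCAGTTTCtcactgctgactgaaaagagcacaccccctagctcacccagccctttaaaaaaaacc
The HIF core was in the promoter of 21 of the 29 HIF targets called higher (72.4%) and of 57.8% of the promoters of all tested genes with an annotated start, and of 27 of all 39 tested HIF targets. For the glycolysis genes called higher it was 9 of 15. The sterol letters were in 3 of the 20 sterol and fatty acid genes called lower (15.0%), *Hmgcs1*, *Acaca* and *Fasn*, and in 4 of all 30 tested members, against 1.17% of all promoters. The interferon letters were in 6 of the 14 interferon-stimulated genes called lower (42.9%) and in 17 of all 43 tested members, against 3.59% of all promoters. A further motif, the CArG box, was in 1 of the 11 members of the SRF and MRTF list called lower. It was in 8 of all 31 tested members, against 1.46% of all promoters. The promoters of *Car9* and *Ndufa4l2* held no HIF core in this window. A match describes the letters only and is no evidence of binding.

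Most tested HIF target genes and glycolysis genes were called higher at day 14. Of 39 tested HIF targets, 29 were called higher and 0 lower, with a median Log2FC of 2.47 (74.4% of the list, against 7.51% of all tested genes). *Egln3*, a prolyl hydroxylase that marks HIF proteins for degradation and is itself a HIF target, had 2.89 and 2.29 CPM at day 1 and 446 and 454 CPM at day 14, the largest Log2FC on the log2(CPM + 1) scale (6.98, standard error (SE) 0.07, adjusted p = 1.6e-30, limma). The order depends on the pseudocount, since with 0.1 *Gpr35*, described below, had 7.95 and *Egln3* 7.40. *Ndufa4l2*, which lowers complex I activity, had 4.34 and 3.61 CPM at day 1 and 440.5 and 475 CPM at day 14 (Log2FC 6.53). *Car9*, a membrane carbonic anhydrase, and *Selenbp1*, a methanethiol oxidase, had Log2FC of 6.18 and 6.01. The rule that named these 4 genes required that the days not overlap. No HIF target was called lower by limma, where 3 members lay below 0 at an unadjusted p below 0.05, and edgeR and DESeq2 on the recovered reads called 1 lower. *Hif1a* itself, which is controlled mainly at the protein level, had 228 and 236 CPM at day 1 and 275 and 274 CPM at day 14, a Log2FC of 0.24 that was not called.

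The glycolysis list covers the pathway from glucose uptake to lactate export, with 4 genes of mitochondrial pyruvate import and pyruvate dehydrogenase added, and 15 of its 24 tested members were called higher and 0 lower (median Log2FC 1.60). Among the others, 4 lay below 0 at an unadjusted p below 0.05, and edgeR and DESeq2 also called 0 lower. *Slc16a3*, the lactate exporter MCT4, had 3.25 and 2.67 CPM at day 1 and 148 and 152 CPM at day 14 (adjusted p = 3.8e-29 in limma, Log2FC 5.26 with an SE of 0.06). *Aldoc*, an aldolase isoform, rose by a Log2FC of 4.24, and *Slc2a1*, the glucose transporter GLUT1, by 3.09. The members *Pkm* (pyruvate kinase), *Ldha* (lactate dehydrogenase A) and *Tpi1* (triosephosphate isomerase) were 3 of the 6 called genes with the largest gain in CPM, and *Bsg*, the chaperone of lactate transporters, which is not on the list, was another. *Ldha* had 493 and 495 CPM at day 1 and 2502 and 2735 CPM at day 14, and *Pkm* had 919 and 915 against 3146 and 3287 CPM. The whole list took 3366 and 3372 CPM at day 1 and 12380 and 13040 CPM at day 14. *Gapdh*, *Pgk1*, *Pgam1* and other members have processed copies elsewhere in the genome that can share their reads, so their levels are uncertain. *Pygl*, a glycogen phosphorylase outside the list, went from 0.177 and 0.408 CPM to 71.1 and 68.0 CPM (Log2FC 5.78).

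Few genes of mitochondrial respiration were called. Of 77 nuclear genes of the respiratory chain, 2 were called higher and 1 lower, with a median Log2FC of -0.12, and of 16 tricarboxylic acid cycle genes 0 were called higher and 1 lower (limma). Of the cycle genes, 1 lay above 0 at an unadjusted p below 0.05, and edgeR and DESeq2 called 0 higher. The 2 called higher were *Cox7a1*, with 0.443 and 0.157 CPM against 2.24 and 2.33 CPM, and *Ndufv3*, with 35.6 and 37.5 against 86.7 and 84.1 CPM. The one called lower was *Ndufa4*, with 169 and 166 CPM at day 1 and 52.96 and 53.67 CPM at day 14 (Log2FC -1.63, adjusted p = 3.5e-21, limma), the paralog of *Ndufa4l2*, which went the other way. The cycle enzyme called lower was *Ogdh*, at 272 and 280 CPM against 127 and 127 CPM. Of 13 mitochondrially encoded protein genes, 7 could be tested and none was called, and 6, among them *mt-Co2* and *mt-Atp6*, were listed at 0 reads in each of the 4 libraries. Since such genes are used in every cell, a value of 0 in this table can reflect how reads were counted. Of the 78 tested ribosomal protein genes, 0 were called higher (also in edgeR and DESeq2) and 2 lower, with a median Log2FC of 0.29 and 56 above 0 at an unadjusted p below 0.05, and these genes too share reads with processed copies. One of the 2, *Rps6* (Log2FC -1.02), was not called after TMM scaling (-0.99) or without day 1 replicate 1 (-0.97) or day 14 replicate 2 (-0.91). Mitochondrial genes took between 1.04% and 1.10% of the reads.

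**Figure D2:**
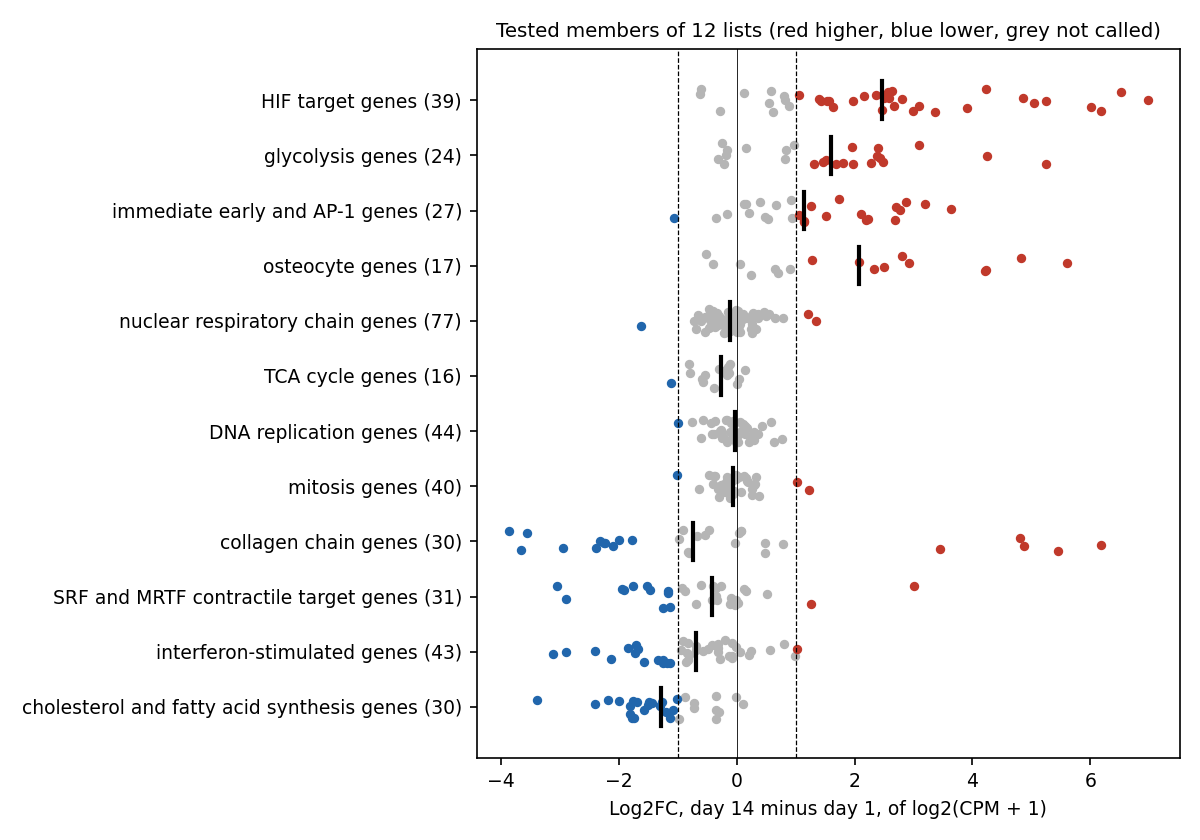
Each point is a tested member of 1 of 12 gene lists, placed by its Log2FC (day 14 minus day 1, of log2(CPM + 1)), and the black bar is the median of the list, whose number of tested members stands in parentheses. HIF target, glycolysis, immediate early and osteocyte genes lie mostly to the right, cholesterol and fatty acid synthesis genes mostly to the left, and replication, mitosis and respiratory chain genes around 0.

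Of 17 tested osteocyte genes, 10 were called higher and 0 lower, with a median Log2FC of 2.08. Of the members below 0, 2 had an unadjusted p below 0.05, and edgeR and DESeq2 called 0 lower. *Ptprz1*, a receptor tyrosine phosphatase, had 0.266 and 0.659 CPM at day 1 and 28.9 and 23.3 CPM at day 14 (Log2FC 4.22, adjusted p = 2.3e-20, limma). *Pdpn*, the early osteocyte marker podoplanin, was not among the increases, with 28.4 and 28.0 CPM at day 1 and 19.4 and 19.2 CPM at day 14 (Log2FC -0.53). *Mepe* and *Fgf23*, both tied to phosphate handling by mature osteocytes, did not pass the filter on low values, and *Fgf23* had 0 reads in the 4 libraries. The list holds genes that the study names from these libraries, so its direction is not independent evidence.

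Within the matrix and mineralization list, 7 of 23 tested genes were called higher and 3 lower (median Log2FC 0.55), with *Ibsp* and *Ifitm5* at one end and *Postn* at the other. *Ibsp*, bone sialoprotein, which nucleates mineral, made the largest gain in CPM of the called genes, from 224 and 217 CPM to 4252 and 4297 CPM (Log2FC 4.27, SE 0.04, adjusted p = 6.8e-31, limma). *Ifitm5*, a membrane protein of mineralizing osteoblasts, had 3.04 and 3.14 CPM at day 1 and 118 and 115 CPM at day 14. *Bglap*, osteocalcin, had 0.827 and 0.533 against 22.6 and 22.1 CPM, though its near-identical neighbours *Bglap2* and *Bglap3* can share its reads. *Alpl*, the phosphatase that removes pyrophosphate, had 412 CPM in both day 1 libraries and 1678 and 1673 CPM at day 14. Type I collagen, the main product of osteoblasts, was not called in either chain. *Col1a1* had 34730 and 34690 CPM at day 1 and 27850 and 22630 CPM at day 14 (Log2FC -0.47, adjusted p = 2.7e-05, limma), and *Col1a2* had 26900 and 27160 against 30290 and 26560 CPM (Log2FC 0.07). The 3 genes called lower encode secreted matrix proteins, osteomodulin (*Omd*), tenascin-W (*Tnn*) and periostin (*Postn*), the last of them from 1623 and 1717 CPM to 205 and 215 CPM.

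Of 27 tested transcription factors of the osteoblast lineage, 9 were called higher and 4 lower. *Dlx3*, a homeobox factor of late osteoblasts, went from 2.42 and 1.79 CPM to 65.3 and 67.6 CPM (Log2FC 4.45, adjusted p = 8.2e-26, limma). *Runx2*, the factor that commits cells to the lineage, was already at 164 and 163 CPM at day 1 and had 269.9 and 260.3 CPM at day 14, a Log2FC of 0.70 that was not called. *Twist2*, a repressor of osteoblast differentiation, had the largest decrease of the list, from 16.0 and 14.5 CPM to 2.21 and 2.29 CPM (Log2FC -2.32), followed by *Bhlhe41* and *Lef1*.

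**Figure D3:**
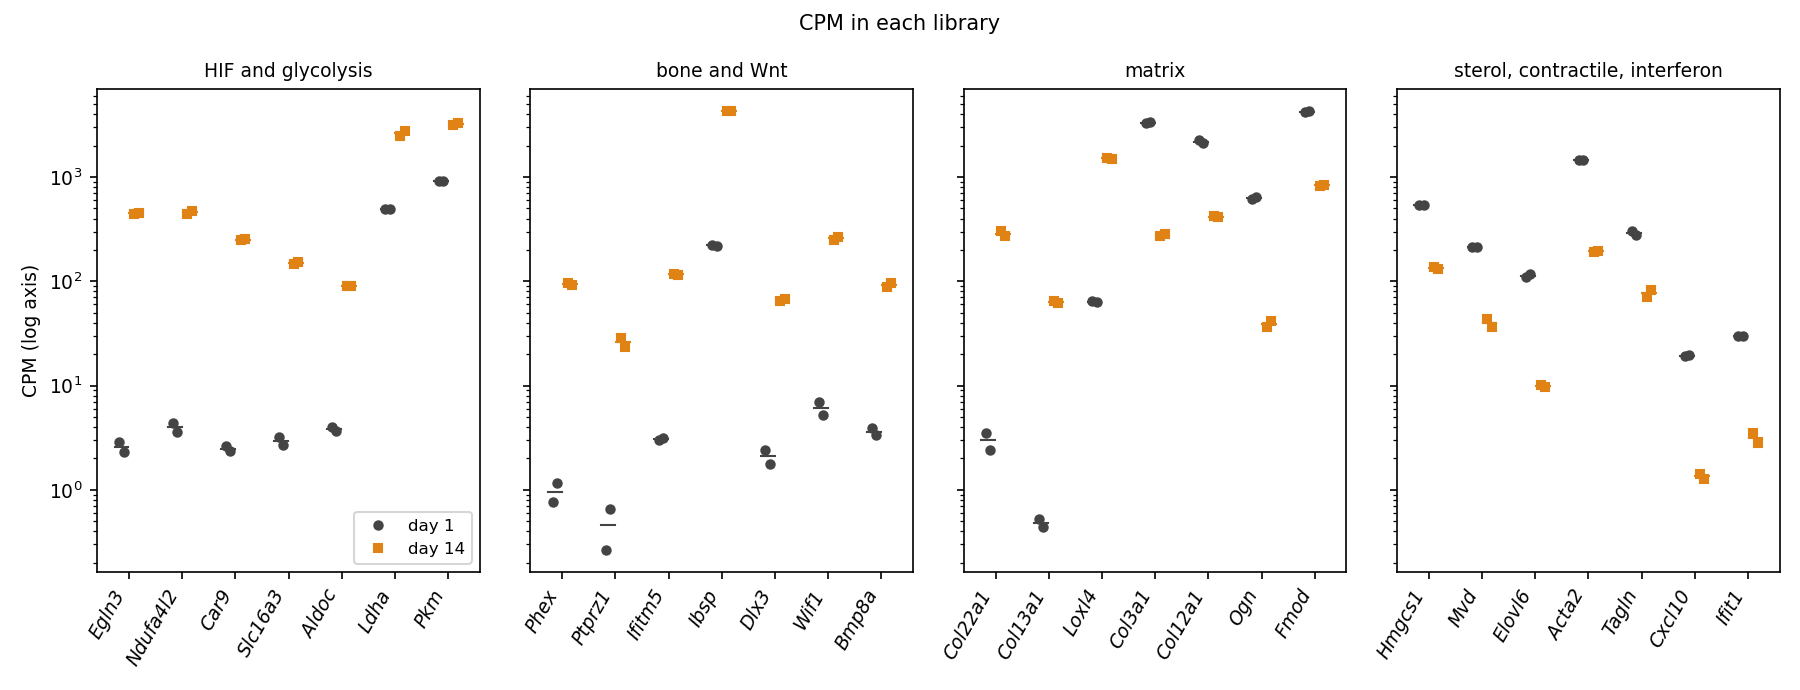
CPM on a log axis in each library for 28 genes in 4 panels, with 2 day 1 libraries (grey circles) and 2 day 14 libraries (orange squares) per gene and a short line at each mean. The 28 genes were picked from the called genes, so the gap between their day 1 and day 14 libraries says nothing of other genes. The distance between replicates is small beside that between days, with *Ptprz1* at day 1 spread most.

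Collagen chain genes changed in both directions. Of 30 tested collagen chain genes 5 were called higher and 11 lower (median Log2FC -0.75). *Col22a1*, a collagen of tissue junctions, had 3.54 and 2.42 CPM at day 1 and 302 and 272 CPM at day 14 (Log2FC 6.19, SE 0.08, adjusted p = 2.8e-29, limma). *Col13a1*, a transmembrane collagen, went from 0.531 and 0.439 CPM to 65.3 and 62.6 CPM, and *Col15a1*, a basement membrane zone collagen, rose by a Log2FC of 4.88. Among those called lower, *Col3a1*, a fibrillar chain of soft connective tissue, had 3278 and 3375 CPM at day 1 and 272 and 287 CPM at day 14 (Log2FC -3.57, SE 0.04, adjusted p = 2.9e-30, limma), *Col12a1* had 2242 and 2130 against 422 and 414 CPM, and *Col7a1* and *Col6a5* had Log2FC of -3.87 and -3.66.

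Small leucine-rich proteoglycans, which bind collagen fibrils and limit their thickness, had 5 of 10 tested members called lower and 1 higher (median Log2FC -1.21). With a pseudocount of 0.1, 7 were called lower and the median was -2.16, and edgeR on the recovered reads gave 7 and -2.35. *Ogn*, osteoglycin, had 612 and 642 CPM at day 1 and 36.4 and 41.2 CPM at day 14 (Log2FC -3.98, adjusted p = 9.3e-29, limma). *Fmod*, fibromodulin, had the largest loss of CPM of the called genes, from 4187 and 4304 CPM to 825 and 837 CPM, and *Aspn*, asporin, fell by 3.41 on the log2 scale. The member called higher, *Prelp*, went from 25.4 and 24.6 CPM to 53.7 and 53.8 CPM.

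Of 26 tested genes that modify and crosslink collagen, 6 were called higher and 3 lower. *Loxl4*, a lysyl oxidase that crosslinks collagen, had 64.1 and 63.0 CPM at day 1 and 1525 and 1493 CPM at day 14 (Log2FC 4.55, SE 0.04, adjusted p = 7.7e-33, limma), while its relative *Loxl1* went from 75.2 and 73.7 CPM to 14.4 and 15.6 CPM. The prolyl hydroxylase subunits split as well, *P4ha2* rising from 132 and 132 CPM to 935 and 933 CPM and *P4ha3* falling from 26.0 and 24.8 CPM to 3.56 and 3.598 CPM. Of 37 matrix proteases and their inhibitors, 8 were called higher and 12 lower. *Serpine2*, a serine protease inhibitor, led the increases (16.8 and 17.1 CPM against 214 and 223 CPM), and *Mmp2*, gelatinase A, had 1106 and 1111 CPM at day 1 and 374 and 378 CPM at day 14.

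Of 30 tested genes of cholesterol and fatty acid synthesis, 20 were called lower and 0 higher (66.7% of the list, against 5.9% of all tested genes), with a median Log2FC of -1.28. Just 1 member lay above 0 at an unadjusted p below 0.05, and edgeR and DESeq2 called 0 higher. *Elovl6*, which elongates fatty acids, had 110.2 and 117 CPM at day 1 and 10.1 and 9.74 CPM at day 14 (Log2FC -3.39, SE 0.06, adjusted p = 7.2e-26, limma). *Mvd*, mevalonate decarboxylase, had 215 and 213 against 43.4 and 36.4 CPM. *Hmgcs1*, whose promoter is printed above, went from 543 and 537 CPM to 137 and 133 CPM.

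Of 43 tested interferon-stimulated genes, 14 were called lower and 1 higher (median Log2FC -0.70). *Cxcl10*, a chemokine for T cells, had 19.2 and 19.4 CPM at day 1 and 1.43 and 1.27 CPM at day 14 (Log2FC -3.11, adjusted p = 2.4e-18, limma). *Ifit1*, an inhibitor of viral translation, had 29.9 and 30.2 CPM against 3.53 and 2.80 CPM, and *Oasl1* had 18.3 and 18.5 against 2.86 and 2.47 CPM. The member called higher was *Ifitm1*, with 0.413 and 0.565 CPM at day 1 and 2.07 and 1.96 CPM at day 14. Its call was lost with quantile normalization (Log2FC 0.83) and when day 1 replicate 1 (0.95) or day 14 replicate 1 (0.99) was left out, while edgeR called 3 members higher. Of 17 tested genes of class I antigen presentation, 1 was called higher and 3 lower (17.6% of the list, against 5.9% of all tested genes), with a median Log2FC of 0.15. *Erap1* and *Tapbp*, which trim and load peptides, had Log2FC of -1.83 and -1.82.

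The list of contractile genes driven by SRF and its cofactor MRTF, which respond to actin polymerization, also holds *Mkl1*, a gene for the cofactor. Of its 31 tested members, 11 were called lower, *Mkl1* among them, and 2 higher (median Log2FC -0.42). *Acta2*, smooth muscle actin, had 1450 and 1454 CPM at day 1 and 192 and 196 CPM at day 14 (Log2FC -2.90, SE 0.06, adjusted p = 3.8e-24, limma), and *Actg2* had 35.9 and 35.7 against 3.26 and 3.598 CPM. *Tpm1*, a tropomyosin, and *Flna*, an actin crosslinker from the dendrite and actin bundling list, were among the called genes that lost most CPM, with 2107 and 2151 against 722 and 756 CPM for *Tpm1* and 2687 and 2637 against 1189 and 1056 CPM for *Flna*. *Acta1*, skeletal muscle actin, went the other way from 2.07 and 2.16 CPM to 22.97 and 25.0 CPM. Tubulins and microtubule-associated genes had 5 of 31 members called lower and 0 higher (also 0 in edgeR and DESeq2, with 5 above 0 at an unadjusted p below 0.05), led by *Dclk1*, *Tubb2a* and *Tuba1a* with Log2FC of -1.66, -1.59 and -1.46.

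Few proliferation genes were called. Of 44 DNA replication genes 0 were called higher and 1 lower in limma (median Log2FC -0.03, which turned to 0.0037 after TMM scaling), and of 40 mitosis genes 2 were called higher and 1 lower (median -0.06), below the shares of all tested genes. Above 0 there were 15 replication genes at an unadjusted p below 0.05, and edgeR and DESeq2 called 0 higher. The replication gene called lower, *Tyms*, stood at the threshold and was not called after TMM scaling (-0.97) or quantile normalization (-0.99), by edgeR (-0.98) or DESeq2 (-0.99) on the recovered reads, or without day 1 replicate 1 (-0.98) or day 14 replicate 2 (-0.99). The mitosis gene called lower, *Plk1* (Log2FC -1.02), was not called after TMM scaling (-0.99) or without day 14 replicate 1 (-0.98). *Mki67*, which marks cycling cells, had 298 and 267 CPM at day 1 and 319 and 279 CPM at day 14, so that the days overlapped (Log2FC 0.08, adjusted p = 0.15, limma). *Cdkn1a*, the p21 inhibitor of cyclin-dependent kinases, had 31.3 and 29.3 CPM at day 1 and 481 and 508 CPM at day 14 (Log2FC 3.98, SE 0.04, adjusted p = 1.2e-30, limma), and *Rb1* went from 17.8 and 20.51 CPM to 71.2 and 69.4 CPM. These were the 2 members called higher of a list of 29 brakes, D cyclins and their kinases, p53 and its targets. Of this list, 8 were called lower, led by *Plk2*, *Cdk6* and *Ccnd2* (Log2FC -1.88 to -1.76). *Trp53* and *Cdkn2a* had Log2FC of -0.89 and -0.87 and were not called.

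Immediate early genes respond within minutes to growth factors and strain. Of 27 tested members, 15 were called higher and 1 lower (median Log2FC 1.14). *Nr4a1*, an orphan nuclear receptor, had 4.16 and 3.58 CPM at day 1 and 64.7 and 55.3 CPM at day 14 (Log2FC 3.65, adjusted p = 2.2e-23, limma). *Klf4* went from 62.7 and 58.6 CPM to 559 and 564 CPM, and *Egr1* from 25.9 and 24.8 CPM to 200.3 and 186 CPM. *Ier5* was called lower, with 90.8 and 87.8 against 39.6 and 44.3 CPM (Log2FC -1.07), a call that was lost without day 14 replicate 1 (-0.99). Of 31 unfolded protein response genes 6 were called higher and 0 lower (median Log2FC 0.20), and of 27 targets of the stress factor ATF4 4 were called higher and 0 lower (median -0.13). Below 0 at an unadjusted p below 0.05 were 10 of the former, with 0 calls by edgeR and DESeq2, and 13 of the latter, with 1 call, as also in limma without day 1 replicate 2 or day 14 replicate 1. Their largest increases were *Ero1a*, an oxidase of the endoplasmic reticulum that is also on the HIF list (Log2FC 2.51), and *Vldlr*, a lipoprotein receptor (Log2FC 2.28).

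**Figure D4:**
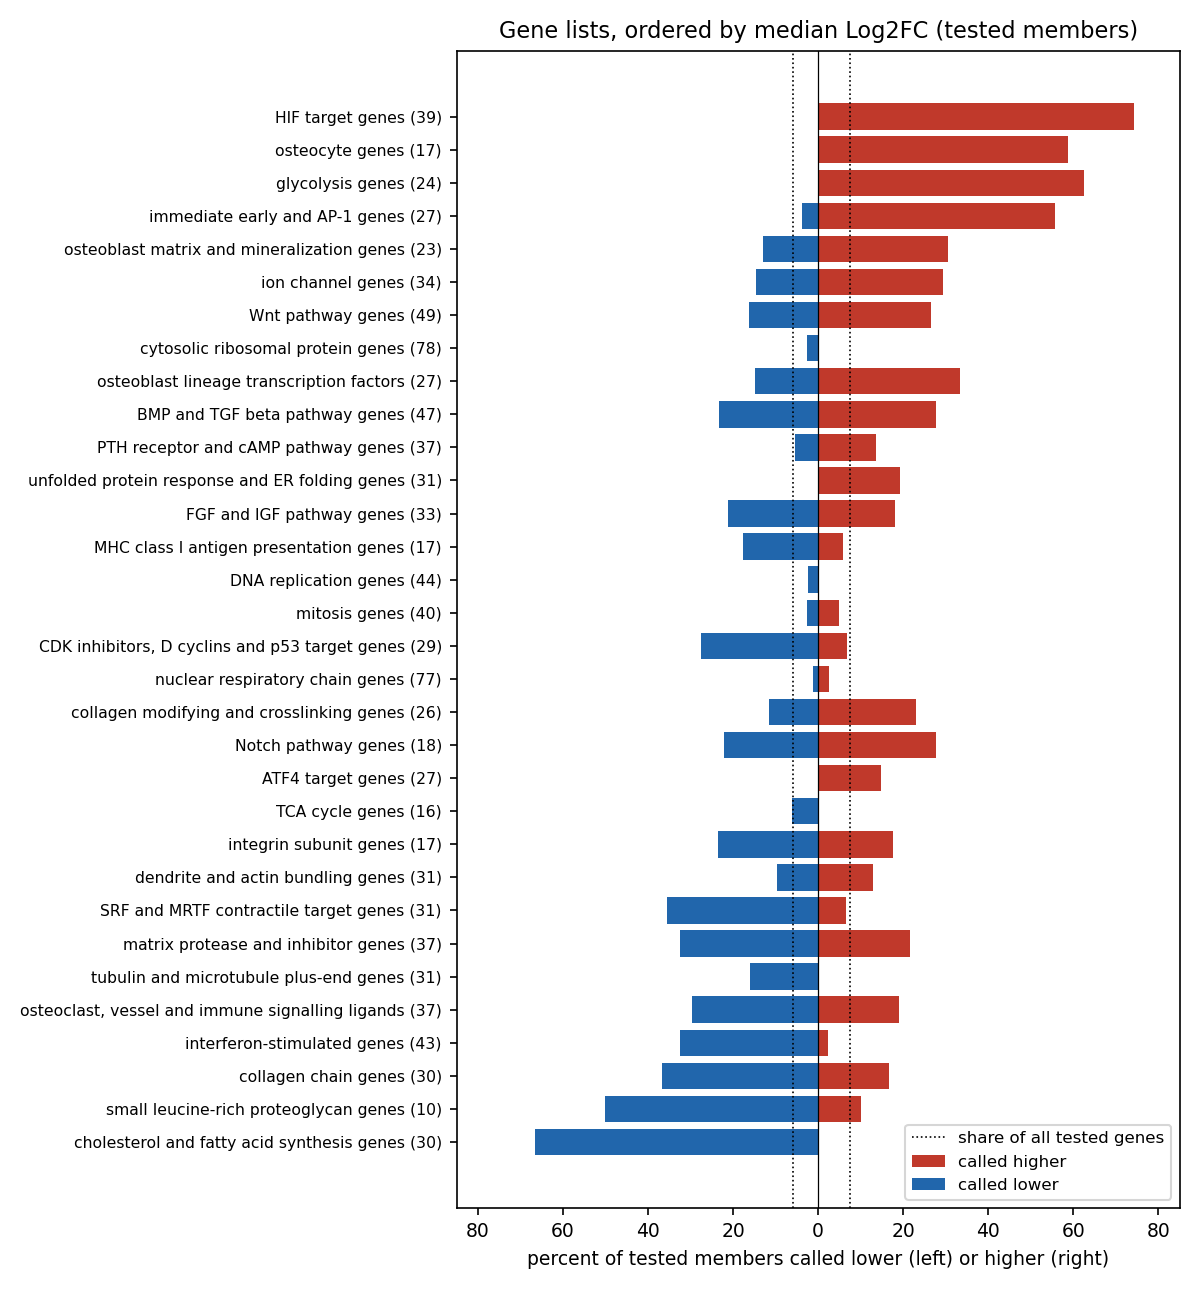
For each list with at least 10 tested members, the bar to the right is the percentage of tested members called higher and the bar to the left the percentage called lower, ordered by median Log2FC with the number of tested members in parentheses. Dotted lines mark the shares of all tested genes, 7.51% higher and 5.9% lower, and several pathway lists exceed both lines at once. Cholesterol and fatty acid synthesis exceeds only the lower one, as do other lists, among them interferon-stimulated genes and SRF and MRTF targets.

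Signalling pathways changed in both directions. Of 49 tested Wnt pathway genes, 13 were called higher and 8 lower. Besides *Sost*, *Wif1*, another secreted inhibitor of Wnt, had 6.97 and 5.21 CPM at day 1 and 251 and 266 CPM at day 14 (Log2FC 5.21, SE 0.07, adjusted p = 9.3e-29, limma), and *Lgr6*, an R-spondin receptor, had 19.1 and 18.2 against 239.7 and 225 CPM. The ligand *Wnt7b*, the receptor *Fzd2* and the antagonist *Sfrp2* had Log2FC of -2.23, -2.08 and -2.08. With a pseudocount of 0.1 these were -3.99, -2.12 and -2.10. *Wnt7b*, at low CPM, had 4.87 and 4.36 CPM at day 1 and 0.175 and 0.218 CPM at day 14. Of 47 BMP and TGF beta genes, 13 were called higher and 11 lower. *Bmp8a*, a ligand, had 3.90 and 3.36 CPM at day 1 and 87.7 and 95.8 CPM at day 14 (Log2FC 4.33), and *Bambi*, a decoy receptor, had a Log2FC of 3.69. The ligand *Tgfb3* had 219 and 228 CPM against 38.1 and 39.5 CPM, and *Ltbp2*, a protein of the fibrillin family, and *Smoc2* had Log2FC of -2.37 and -2.81.

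Of 18 Notch pathway genes, 5 were called higher and 4 lower. The ligand *Jag2* had 3.19 and 3.04 CPM at day 1 and 126 and 125 CPM at day 14 (Log2FC 4.94, adjusted p = 2.1e-29, limma), whereas the ligand *Jag1* was called lower (Log2FC -1.16). Of 33 FGF and IGF genes, 6 were called higher and 7 lower. *Fgfr3* had 28.8 and 27.6 CPM at day 1 and 151 and 155 CPM at day 14, while *Pappa*, a protease that frees IGF from its binding proteins, and *Igf1* had Log2FC of -2.77 and -2.49. With a pseudocount of 0.1 *Pappa* had -2.97 and *Igf1* -3.27, so their order depends on the pseudocount. *Igf1* had 10.74 and 9.44 CPM at day 1 and 1.195 and 0.763 CPM at day 14. Of 37 genes of the PTH receptor and cAMP pathway, 5 were called higher (13.5%, against 7.51% of all tested genes). Another 2 were called lower (4 by edgeR), a share of 5.41% that is near the 5.9% of all tested genes. *Ramp1*, a partner of calcitonin-family receptors, had 7.11 and 6.78 CPM against 294 and 331 CPM (Log2FC 5.30, adjusted p = 3.1e-31, limma), and *Adcy7*, an adenylyl cyclase, had 88.5 and 87.6 against 13.3 and 13.7 CPM.

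Of 37 genes for ligands that act on osteoclasts, vessels and immune cells, together with a few of their decoy and scavenger receptors, 7 were called higher and 11 lower (median Log2FC -0.53). The largest increase was in *Ackr3*, a scavenger receptor for CXCL12 rather than a ligand (Log2FC 6.01). Among the ligands, *Sema3c* had 116 and 115 CPM at day 1 and 10.9 and 10.8 CPM at day 14 (Log2FC -3.30, adjusted p = 4.0e-24, limma). *Ccl5* had 8.265 and 6.90 CPM at day 1 and 0.525 and 0.472 CPM at day 14 (Log2FC -2.51). With a pseudocount of 0.1 *Sema3c* had -3.41 and *Ccl5* -3.68, so their order depends on the pseudocount. *Vegfa*, which drives vessel growth and is also on the HIF list, was called higher, with 54.7 and 53.4 CPM against 324 and 333 CPM (Log2FC 2.58). So was *Tnfrsf11b*, the decoy receptor osteoprotegerin, with a Log2FC of 2.81.

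Membrane and adhesion genes were mixed as well. Of 34 ion channel genes, 10 were called higher and 5 lower (median Log2FC 0.52). *Ano1*, a calcium-activated chloride channel, went from 0.767 and 0.784 CPM to 50.8 and 50.1 CPM (Log2FC 4.86, adjusted p = 1.4e-25, limma), and the sodium channel *Scn1a* from 1.45 and 1.73 CPM to 16.6 and 18.7 CPM. *Piezo2*, a mechanically gated channel, had 42.8 and 43.2 CPM at day 1 and 10.3 and 8.14 CPM at day 14. *Panx3*, a pannexin of skeletal cells, had 71.7 and 78.3 against 648 and 658 CPM. Of 17 integrin genes, 3 were called higher and 4 lower. Of the collagen-binding subunits, *Itga1* and *Itga11* had Log2FC of -2.07 and -1.74 and *Itga10* had 1.27. Of 31 dendrite and actin bundling genes, 4 were called higher and 3 lower. *Cdc42ep3*, an effector of CDC42, *Evl*, an actin regulator, and the bundling protein *Pls3* were called higher with Log2FC of 1.87, 1.23 and 1.12. *Fscn1*, the bundling protein fascin, was called lower, with 693 and 677 CPM against 297 and 299.5 CPM. The surface proteoglycan *Sdc3*, syndecan-3, which is on none of the lists, had 205 and 204 CPM at day 1 and 1943 and 1984 CPM at day 14, the fourth largest gain of CPM of the called genes.

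The remaining largest changes were in genes of varied function. *Gpr35*, a G protein-coupled receptor, had 0.649 and 0.251 CPM at day 1 and 127 CPM in both day 14 libraries (Log2FC 6.48, SE 0.10, adjusted p = 3.0e-27, limma). *Ncf1*, a cytosolic subunit of the phagocyte NADPH oxidase, had 3.28 and 2.95 CPM against 283 and 299.6 CPM, and the adhesion receptor *Gpr133* had 4.19 and 3.92 against 288 and 279.6 CPM. On the other side, *C1qtnf3*, a secreted protein with a collagen-like domain, had 172 and 179 CPM at day 1 and 2.27 and 2.54 CPM at day 14. It was the one gene called with a Log2FC below -4 on the log2(CPM + 1) scale (-5.69, SE 0.08, adjusted p = 2.2e-27, limma). With a pseudocount of 0.1, *Col7a1* (-4.105) and *Ogn* (-4.01) also lay below -4. *Npr3*, the clearance receptor for natriuretic peptides, *Fbn1*, the microfibril protein fibrillin-1, *Plscr2*, a phospholipid scramblase, and *Kif26b*, a kinesin family member, had Log2FC between -3.74 and -3.48.

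Some genes were detected at one end only. In all, 11 genes had 0 reads in both day 1 libraries and a mean of at least 1 CPM at day 14. A count of 0 over the 2 day 1 libraries allows up to 0.0456 CPM (3 reads over both), for counting error alone. After *Sost*, the highest at day 14 was *Edn2*, the vasoconstrictor endothelin 2, with 109 and 60 reads (3.18 and 2.18 CPM). By that limit, *Edn2* was at least 58.7-fold higher than at day 1. *Trpm1*, *Gja3*, *Prdm16* and *Ptpro* were at least 30.8-fold, 29.8-fold, 28.6-fold and 28.0-fold higher. In the other direction, 2 genes had 0 reads in both day 14 libraries and a mean of at least 1 CPM at day 1. *Cdh10*, a cadherin, had 1.45 and 1.44 CPM at day 1 and 0 reads at day 14, at least 29.8-fold lower than at day 1. *Arhgef16* had 1.24 and 0.784 CPM at day 1 and was at least 20.9-fold lower at day 14. It was called by edgeR and DESeq2 but not by limma (Log2FC -0.999).

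Markers of blood, fat, muscle and vessel cells were low, and few of them could be tested. The summed CPM of 15 macrophage and osteoclast markers was 15.4 and 14.7 at day 1 and 8.63 and 9.34 at day 14, with *Adgre1*, *Tyrobp*, *Dcstamp*, *Ocstamp* and *Calcr* at 0 reads. Of the 3 tested, *Fcer1g* was called lower (6.97 and 6.96 against 2.215 and 1.71 CPM). *Cd14* and *Cd68* were not called by limma, though edgeR and DESeq2 called *Cd68* higher. The summed CPM of 14 adipocyte markers was 12.8 and 13.3 against 34.3 and 32.9, with *Adipoq* and 5 others at 0 reads. Of the 2 tested, *Plin4* was called higher (2.21 and 2.23 against 15.0 and 15.4 CPM) and *Cebpa* was not called. The summed CPM of 12 muscle markers was 3.90 and 3.76 against 26.2 and 30.1, most of it *Acta1* at day 14. The 11 endothelial markers summed to 22.2 and 21.8 against 39.6 and 42.0, with *Cdh5* and *Kdr* at 0 reads, and of the 3 tested *Vwf* was called higher (1.12 and 0.690 against 17.9 and 19.0 CPM) and *Flt1* lower (12.8 and 12.2 against 5.19 and 5.74 CPM). The 15 chondrocyte markers, which bone cells share in part, summed to 256 and 251 CPM at day 1 and 1777 and 1643 CPM at day 14. Of these, 3 of 10 tested were called higher and 2 lower, with *Col11a2* from 129 and 128 CPM to 1468 and 1355 CPM and *Col2a1* between 1.31 and 2.48 CPM in the 4 libraries. The 7 tendon markers summed to 4278 and 4388 CPM at day 1 and 1058 and 1055 CPM at day 14, most of it *Fmod*, which bone cells also express, with *Kera* at 0 reads. Of the 4 tested, *Egr1* was called higher and *Fmod* lower (2 lower without day 1 replicate 2). The 14 neuron and glia markers summed to 32.5 and 31.1 against 52.4 and 52.0 CPM, and the 11 epithelial markers to 29.5 and 28.8 against 10.4 and 12.8 CPM, nearly all of it *Krt14*, which was called lower. Whether other cells add to the changes above was not tested.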

How the data were processed

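RNA was sequenced from mouse Ocy454 cells in biologic duplicates at days 1, 7, 10 and 14 of differentiation. The authors used STAR for mapping and HTSeq for counting, and the values they deposited are CPM, which sum to 1000000 in each library. GRCm39 is named in the submitters' processing notes, and the annotation is not given in the sources used here. All 313432 CPM values of the 8 libraries lay within 0.01 of a whole number of reads, so reads were recovered. Values of log2(CPM + 1) were fitted with limma 3.58.1 (trend, R 4.3.3) for genes that exceeded 1 CPM in any of the 8 libraries. Days 7 and 10 served only for this choice of genes and for the estimate of spread. A fold change on this scale understates the change of genes at low CPM. A call needed a Log2FC past 1 or -1 together with an adjusted p (Benjamini-Hochberg) under 0.01. On simulated data with 200 genes changed well past the threshold among 12725, and the same spread in all libraries, limma recovered 187 with 0 false calls. Smaller changes and unequal spread between days were not simulated.

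The 42 gene lists and the rule for named genes were chosen with earlier results of these data known. The rule took the 10 largest increases and decreases with a mean of at least 5 CPM, if the days did not overlap. It also took the 6 largest gains and losses of CPM and up to 6 genes with 0 reads at one end. Each list gave its 3 members called higher and lower with the largest changes. A set of bone and cell cycle genes was added. Of the list symbols, 5 had no match. Alternatives were another pseudocount (0.1), filters, TMM and quantile scaling, no trend, the 4 libraries alone, edgeR 4.0.16 and DESeq2 1.42.0 on the recovered reads, other thresholds, a replicate block and each library left out. Promoters were read from GRCm39 with GENCODE M39 starts for 12560 tested genes. Python 3.11.15, pandas 2.3.3 and matplotlib 3.10.9 were used. The libraries of CD61-sorted cells were not used here. Some genes that meet the rule for named genes are not reported here.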

Additional observations from a re-analysis of the deposited data

How the results depend on the processing

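Of 203 named genes, 175 were called, and 147 of them stayed past the threshold in each setting that tested them, while 28 lost the call in at least 1 setting and 0 changed direction. The 28 lie near the threshold or at low CPM, and each of them lost its call when limma tested against a Log2FC of 1 in place of 0. That test left 648 genes higher and 426 lower. With 0.1 as the pseudocount the counts were 1269 and 972, with edgeR 1339 and 953, with DESeq2 1297 and 929, with TMM scaling 994 and 703, with quantile normalization 886 and 818, and with a filter on a mean of 5 CPM 709 and 572. Each of the 956 genes called higher was also called by edgeR, DESeq2, TMM scaling and the smaller pseudocount. Of the 751 called lower, these called 738, 742, 703 and 751, and none of the 1707 genes was called in the opposite direction by these 4 settings. Leaving out each library in turn gave 950 to 990 genes higher and 738 to 766 lower. Libraries with the same replicate number at days 1 and 14 had deviations correlated at r = 0.0866, so little pairing showed. A fit with the replicate number as a block gave 956 and 751 again. No filter, no trend, the 4 libraries alone and an adjusted p below 0.05 also gave 956 and 751. These settings and the block could hardly change the counts. They leave the Log2FC of each gene as it was, and all 1707 tested genes past 1 or -1 also passed the adjusted p. Of the tested genes, 8.57% were called below a mean of 1 CPM, 19.8% at 1 to 10, 11.8% at 10 to 100 and 12.3% over 100 CPM.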
